A study of Homo sapiens with 16 samples.

Results

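Cadherins, catenins and desmosome proteins hold epithelial cells together, and their transcripts were followed here in prostate cancer cells in which doxycycline (Dox) switches on the transcription factor Runx2. The set consists of 10 genes, namely the cadherins CDH1, CDH2, CDH3 and CDH11, the catenins CTNNA1, CTNNB1, CTNND1 and JUP, and the desmosome genes DSP and PKP2. Every probe that the platform annotation names for one of these genes was taken, which gave 14 of the 24526 probes of the array. CTNNB1 and CTNND1 have 2 probes each, JUP has 3, and the other genes have 1 each.

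C4-2B is a castration-resistant prostate cancer line derived from LNCaP cells. Its subline C4-2B/Rx2dox carries a Flag-tagged mouse Runx2 cDNA in a lentiviral pSLIK vector, behind a promoter that Dox activates, and was selected with hygromycin. Whether the subline is a pool or 1 clone is not given in the sources used here. RNA was measured on Illumina BeadChips in 4 groups of 4 cultures each, which received 250 ng/ml Dox or vehicle for 24 h (day 1) or 48 h (day 2). The vehicle groups carry the same construct, and no array of Dox-treated cells without it was analysed here, so an effect of Dox and an effect of the induced Runx2 cannot be told apart. The array's probe for human RUNX2 was not used to check the labels, because the induced cDNA is the mouse one.

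Classical cadherins bind cadherins of neighbouring cells through their extracellular part. Their cytoplasmic tail holds CTNND1 near the membrane and either beta-catenin (CTNNB1) or plakoglobin (JUP), which in turn bind alpha-catenin (CTNNA1) and through it the actin cytoskeleton. Desmosomes are built in parallel: desmogleins and desmocollins bind plakoglobin and plakophilins such as PKP2, and desmoplakin (DSP) ties these to keratin filaments. In epithelial-to-mesenchymal transition CDH1 is typically repressed by Snail and ZEB proteins while CDH2 often rises.

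In short, Dox raised the transcripts of CDH1 (1.78-fold on day 1, 1.99-fold on day 2) and JUP (on day 2 past the threshold in its brightest probe alone). It raised CTNNB1 past the threshold on day 2 only, and lowered CDH3 on day 2. CTNNA1 passed the test on neither day. CDH2, CDH11, DSP and PKP2 lay at background on every array, and CTNND1 was above background on 1 of 16.

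The detection p-value of a probe is the share of an array's 664 negative controls that were brighter than it, and values under 0.01 were taken as above background. By this measure 7 of the 14 probes, covering 5 of the 10 genes, were above background on all 16 arrays. These were the probes of CDH1, CDH3 and CTNNA1, the 3 probes of JUP and the CTNNB1 probe ILMN_1757350. A further 6 probes were above background on none of the arrays, namely those of CDH2, CDH11, DSP and PKP2 and the probes CTNNB1 ILMN_1651617 and CTNND1 ILMN_2293511. The arrays were alike in detection, with 40.1% to 42.2% of all probes above background. Arrays of a group correlated at 0.9933 to 0.9963 over all probes. Their median signal before correction, from 106.6 to 139.2, differed by group. On day 1 it was 119.1 to 124.2 with vehicle and 124.9 to 139.2 with Dox, without overlap. On day 2 it was 108 to 111.1 with vehicle and 106.6 to 112.8 with Dox. Of the prostate luminal markers, 8 of 10 listed were measured and all 8 were above background on all 16 arrays. On day 2, 3 of these rose with Dox (KLK2 by 1.66, KRT8 by 1.23 and KLK3 by 0.50 on the log2 scale) and 4 fell (TMPRSS2 by 1.21, STEAP2 by 1.04, FOLH1 by 0.92 and HOXB13 by 0.74), while on day 1, 2 rose and 4 fell. Their mean log2 value was 9.08 to 9.13 on the vehicle arrays and 9.03 to 9.09 on the Dox arrays of day 2. None of the 4 measured leukocyte markers was above background on any array, and the same held for 2 of 3 basal (KRT5 and KRT14), 3 of 5 fibroblast and 3 of 4 endothelial markers. The remaining basal marker, KRT15, was above background on the 4 Dox arrays of day 2 alone. It was at least 1.28-fold higher there than with vehicle. In such a bound each array of the dimmer group enters with the lowest signal above background on it. The adjusted p (1.64e-08 in limma) tests the fitted difference, which uses the values at background, and not the bound. The mean log2 value over the 3 basal markers on day 2 was 4.49 to 4.67 with vehicle and 4.88 to 5.13 with Dox. The endothelial marker VWF, above background on 4 vehicle and 3 Dox arrays of day 2, fell by 0.95 on that day (adjusted p = 8.75e-06), and the list's mean was 5.14 to 5.21 with vehicle and 4.85 to 5.02 with Dox. The fibroblast marker COL1A1 was above background on 3 vehicle arrays and no Dox array of day 2. It was at least 1.24-fold lower with Dox, and the adjusted p of its fitted difference was 0.000103. The fibroblast list had a mean of 4.93 to 5.07 with vehicle and 4.66 to 4.93 with Dox. The part of these marker changes in the results below was not tested. In RNA from whole cultures, fewer cells of a type and less RNA per cell cannot be told apart.

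All levels below are log2 signals after background correction and quantile normalization, and a difference of 1 on this scale is a doubling. Each adjusted p comes from limma with Benjamini-Hochberg adjustment over all 24526 probes, 2-sided, with 0.05 as the threshold. Levels of different probes are not set against each other.

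**Figure D1:**
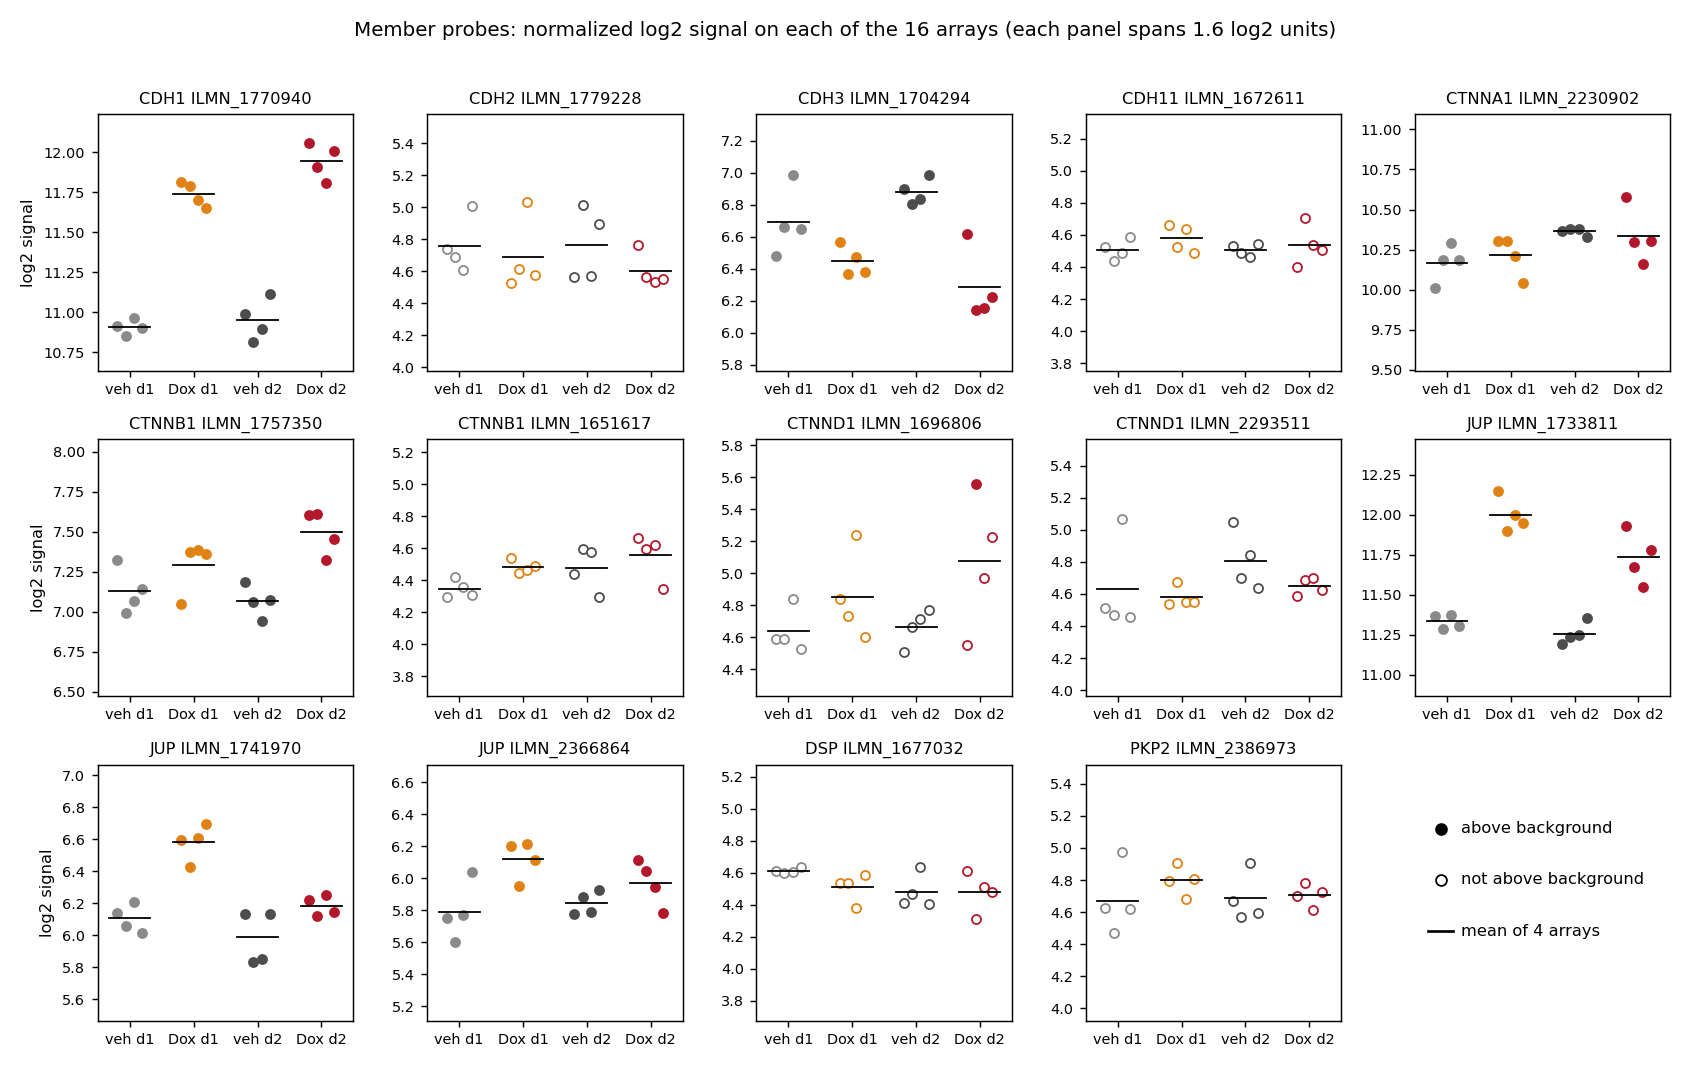
Normalized log2 signal of the 14 member probes on the 16 arrays, 1 panel a probe, by group (veh, vehicle; d1 and d2, day 1 and day 2). Filled points are arrays on which the probe was above background, open points are the others, and bars are means of 4 arrays. CDH1 and JUP ILMN_1733811 show 4 Dox points above the 4 vehicle points on both days, and CDH3 shows 4 Dox points below the 4 vehicle points on day 2.

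CDH1 encodes E-cadherin, the classical cadherin of epithelial cells (chr16:68737292-68835537, GRCh38.p14). On day 1 its log2 values were 10.91, 10.85, 10.96 and 10.90 with vehicle and 11.82, 11.79, 11.70 and 11.65 with Dox. On day 2 they were 10.99, 10.82, 10.89 and 11.12 with vehicle and 12.06, 11.91, 11.81 and 12.01 with Dox. All Dox arrays were above all vehicle arrays on both days, and the gap between the groups was several times the spread within them. The rise was 1.78-fold on day 1 (log2 fold change 0.83, SE 0.0715, 95% confidence interval 0.68 to 0.98, adjusted p = 1.42e-07). On day 2 it was 1.99-fold (log2 difference 0.99, SE 0.0715, interval 0.84 to 1.14, adjusted p = 3.9e-09). The Dox effect did not pass the test for a change between the days (difference 0.16, interval -0.05 to 0.37, adjusted p = 0.424). From day 1 to day 2 the log2 value differed by 0.05 with vehicle (adjusted p = 0.799) and by 0.21 with Dox (adjusted p = 0.0525), and the latter passed the threshold under 5 of 16 alternative settings. These settings included scaling to the 75th percentile, which moved the median of all probes by 0.22.

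CDH3 encodes P-cadherin, typical of basal epithelial cells, and lies directly beside CDH1 (chr16:68645310-68733771). Its log2 values on day 1 were 6.48, 6.66, 6.99 and 6.65 with vehicle and 6.57, 6.37, 6.47 and 6.38 with Dox. These groups overlapped, and the difference of -0.25 (SE 0.11) did not pass the test (adjusted p = 0.144). On day 2 the values were 6.90, 6.80, 6.84 and 6.99 with vehicle and 6.62, 6.14, 6.15 and 6.22 with Dox. Here the groups no longer overlapped, although the highest Dox array lay far closer to the vehicle arrays than the other 3 did. CDH3 fell 1.51-fold on day 2 (log2 fold change -0.60, SE 0.11, interval -0.83 to -0.36, adjusted p = 0.000309). The change of the Dox effect between the days was -0.35 (interval -0.67 to -0.02), which did not pass the test (adjusted p = 0.204) but did so without replicate 1 of the day 2 Dox group (-0.46, with adjusted p values from 0.0327 to 0.349 over all alternatives).

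CDH2 encodes N-cadherin (chr18:27932879-28177130) and CDH11 the cadherin of osteoblasts (chr16:64943753-65123744). The signals of the CDH2 probe ran from 98.7 to 137 over the 16 arrays and those of the CDH11 probe from 91.5 to 125. None of them was above background. With the looser detection p of 0.05, CDH2 was above background on 3 arrays, of which 2 were vehicle arrays, and CDH11 on none. No fold change is given for these 2 genes, and at this sensitivity no induction of either was detectable.

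JUP encodes plakoglobin, the catenin shared by adherens junctions and desmosomes (chr17:41754609-41786711, minus strand). The brightest of its 3 probes, ILMN_1733811, had log2 values of 11.37, 11.29, 11.37 and 11.30 with vehicle and 12.15, 11.90, 12.00 and 11.95 with Dox on day 1. On day 2 its values were 11.19, 11.24, 11.25 and 11.35 with vehicle and 11.93, 11.68, 11.55 and 11.78 with Dox. The groups did not overlap on either day. This probe rose 1.58-fold on day 1 (log2 fold change 0.66, SE 0.0762, interval 0.50 to 0.82, adjusted p = 4.56e-06). Its day 2 rise was 1.39-fold (log2 difference 0.48, SE 0.0762, interval 0.32 to 0.64, adjusted p = 7.5e-05).

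The 2 dimmer JUP probes moved the same way on day 1. ILMN_1741970 measured 6.14, 6.06, 6.21 and 6.02 with vehicle and 6.59, 6.43, 6.61 and 6.70 with Dox on day 1, and the groups did not overlap. It rose by 0.48 (SE 0.0806, adjusted p = 0.000279). ILMN_2366864 measured 5.75, 5.60, 5.77 and 6.04 with vehicle and 6.20, 5.95, 6.21 and 6.11 with Dox. Its highest vehicle array exceeded its lowest Dox array, and its rise of 0.33 (SE 0.0917, adjusted p = 0.0163) lost the threshold when any of 3 single arrays was left out (vehicle replicate 2, Dox replicate 1 or Dox replicate 3, with adjusted p values from 0.00259 to 0.065 over all alternatives).

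On day 2 neither of the dimmer JUP probes passed the test. ILMN_1741970 measured 6.13, 5.83, 5.85 and 6.13 with vehicle and 6.22, 6.12, 6.25 and 6.14 with Dox, a difference of 0.20 (interval 0.03 to 0.37, adjusted p = 0.0814). It passed under 4 of 16 alternative settings, namely with scaling to the 75th percentile, among probes above background only, and without vehicle replicate 1 or 4 (adjusted p values from 0.0375 to 0.248 over all alternatives). ILMN_2366864 measured 5.77, 5.88, 5.79 and 5.92 with vehicle and 6.11, 6.05, 5.95 and 5.78 with Dox, a difference of 0.13 (interval -0.06 to 0.32, adjusted p = 0.374). Between the Dox arrays of the 2 days ILMN_1741970 fell by 0.40 (SE 0.0806, adjusted p = 0.00132) and ILMN_1733811 by 0.26 (SE 0.0762, adjusted p = 0.0195), the latter losing the threshold under 5 of 16 alternative settings. The change of the Dox effect between the days was -0.19, -0.28 and -0.20 for ILMN_1733811, ILMN_1741970 and ILMN_2366864 and passed the test for none of them (adjusted p = 0.368, 0.157 and 0.451).

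RefSeq promoter sequence was at hand for 5 of the 10 genes, namely CDH2, CTNNA1, CTNNB1, JUP and DSP, with 10 start sites in all. In the 250 bases before each start, 2 motifs were searched on both strands: CACCTG, the E-box to which Snail and ZEB proteins bind, and ACCACA, the consensus of the Runx proteins. Among all 35116 RefSeq windows of that length, 17.5% hold CACCTG and 11% hold ACCACA. JUP and CTNNB1 are shown because their transcripts rose, and DSP because it holds the E-box. Letters in capitals are matches to CACCTG on either strand. The first JUP start (chr17:41786712-41786961, minus strand, GRCh38.p14) and the CTNNB1 start (chr3:41199255-41199504, plus strand) hold neither motif. The second JUP start holds CACCTG in both orientations, of which the 30 bases that include them are shown (chr17:41786007-41786036, minus strand, 60 to 31 bases before the start). The DSP start (chr6:7541421-7541670, plus strand) holds it at 178 and 85 bases before the start.
JUP, first start: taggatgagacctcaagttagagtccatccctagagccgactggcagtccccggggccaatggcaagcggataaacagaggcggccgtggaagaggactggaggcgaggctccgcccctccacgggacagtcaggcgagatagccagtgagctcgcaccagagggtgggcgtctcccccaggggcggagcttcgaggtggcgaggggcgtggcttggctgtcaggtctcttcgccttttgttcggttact
JUP, second start: tggcccCACCTGccgagCAGGTGagcgcac
CTNNB1: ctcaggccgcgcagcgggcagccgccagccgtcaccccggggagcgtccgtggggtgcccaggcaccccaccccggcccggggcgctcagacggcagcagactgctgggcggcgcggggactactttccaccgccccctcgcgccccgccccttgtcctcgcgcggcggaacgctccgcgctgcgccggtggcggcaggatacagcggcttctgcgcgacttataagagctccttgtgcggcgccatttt
DSP: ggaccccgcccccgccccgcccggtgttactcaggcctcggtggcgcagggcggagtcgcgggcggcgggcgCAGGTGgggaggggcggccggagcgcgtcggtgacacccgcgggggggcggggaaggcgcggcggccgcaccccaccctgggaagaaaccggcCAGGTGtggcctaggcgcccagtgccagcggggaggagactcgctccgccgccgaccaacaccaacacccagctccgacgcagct
ACCACA was found in 1 of the 10 windows, at 44 bases before the fourth start of CTNNA1, and the CDH2 windows hold neither motif. These matches are letters in a window and were not tested as binding sites.

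CTNNB1 encodes beta-catenin, which also acts as a coactivator of TCF factors in the nucleus (chr3:41199505-41240443). Its probe ILMN_1757350 had log2 values of 7.32, 6.995, 7.07 and 7.15 with vehicle and 7.05, 7.38, 7.38 and 7.36 with Dox on day 1. The groups overlapped through 1 low Dox array, and the difference of 0.16 (SE 0.0929) did not pass the test (adjusted p = 0.313). On day 2 the values were 7.19, 7.06, 6.95 and 7.07 with vehicle and 7.61, 7.61, 7.32 and 7.46 with Dox, without overlap. CTNNB1 thus rose 1.35-fold on day 2 (log2 fold change 0.43, SE 0.0929, interval 0.24 to 0.63, adjusted p = 0.00133). The Dox effect differed between the days by 0.27 (interval -0.00 to 0.55), which did not pass the test (adjusted p = 0.248). The second CTNNB1 probe, ILMN_1651617, had signals of 89.3 to 119 and was above background on no array, so it neither repeats nor contradicts the first.

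CTNNA1 encodes alpha-catenin, the link to actin (chr5:138753425-138935034). With vehicle its log2 values were 10.01, 10.18, 10.29 and 10.18 on day 1 and 10.36, 10.38, 10.38 and 10.33 on day 2. With Dox they were 10.30, 10.30, 10.21 and 10.04 on day 1 and 10.58, 10.30, 10.16 and 10.31 on day 2. The Dox and vehicle groups overlapped on both days. The difference was 0.05 on day 1 (interval -0.13 to 0.23, adjusted p = 0.817) and -0.03 on day 2 (interval -0.21 to 0.15, adjusted p = 0.883), so a change of more than about 0.23 in either direction lay outside both intervals. The vehicle arrays of day 2 were all above those of day 1, by 0.20 on average, which did not pass the test (adjusted p = 0.184).

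CTNND1 encodes the catenin that stabilizes cadherins at the membrane (chr11:57761802-57819540). Its probe ILMN_1696806 had signals of 97.1 to 143 and was above background on 1 array, from the day 2 Dox group. On day 2 it measured 4.51, 4.66, 4.71 and 4.77 with vehicle and 4.55, 5.56, 4.97 and 5.23 with Dox. One Dox array was level with the vehicle arrays while the other 3 were above them, and the fitted difference of 0.41 did not pass the test (adjusted p = 0.0802). Without that array (replicate 1) the fitted difference was 0.59 and passed, with adjusted p values from 0.00473 to 0.292 over all alternatives. The vehicle arrays lay at background, so these differences are no fold changes. The other CTNND1 probe, ILMN_2293511, was above background on no array, so it neither repeats nor contradicts the first. Its fitted difference on day 2 was -0.16 (adjusted p = 0.398).

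DSP encodes desmoplakin (chr6:7541671-7586714) and PKP2 plakophilin-2 (chr12:32790755-32896777). The DSP signals ran from 90.7 to 124 and the PKP2 signals from 101 to 139. Neither probe was above background on any array, and with the looser detection p of 0.05 PKP2 was on 3 arrays and DSP on none. The desmosome component that could be measured among the members was therefore JUP.

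**Figure D2:**
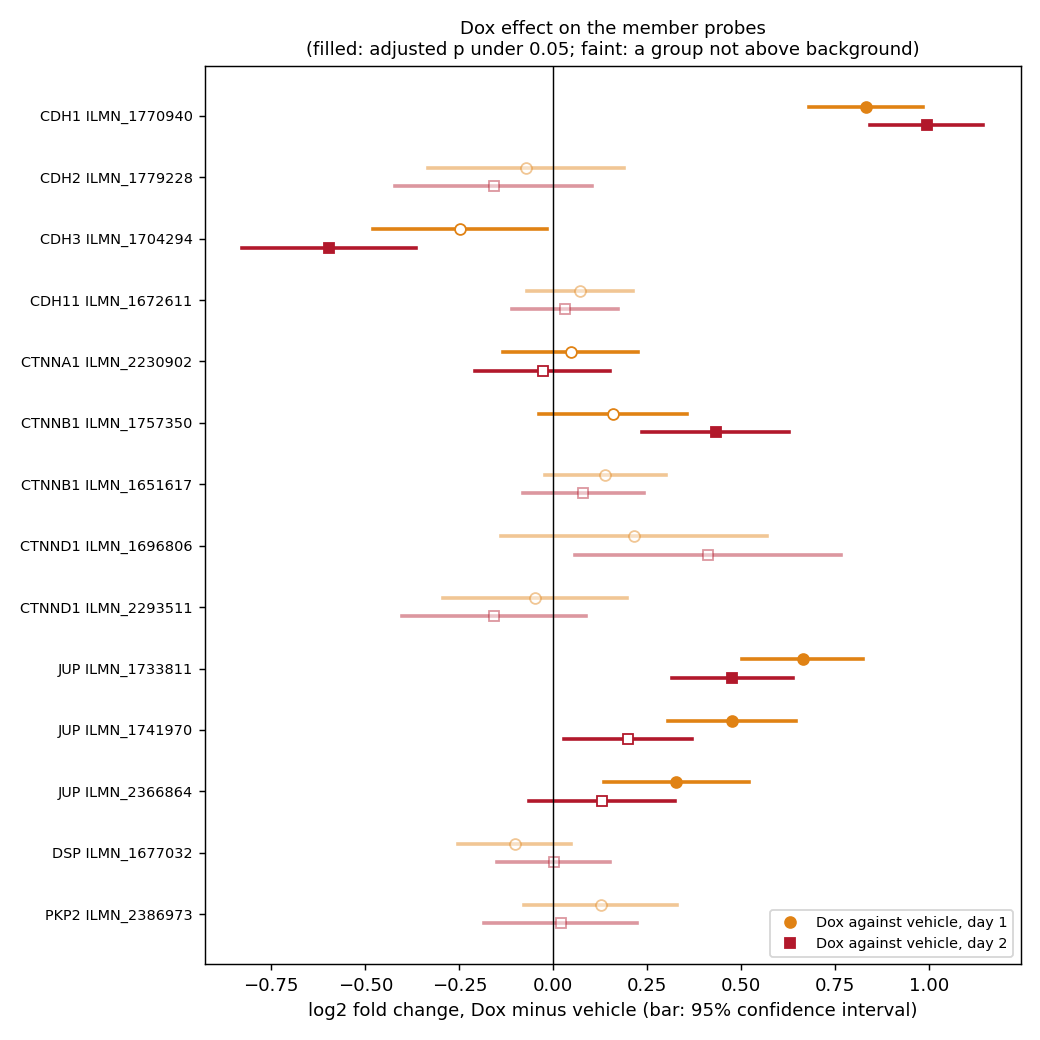
Log2 fold change of Dox against vehicle for the 14 member probes on day 1 (circles) and day 2 (squares), with 95% confidence intervals from limma. Filled symbols passed an adjusted p of 0.05, and faint symbols are probes with a group not above background, for which the value is no fold change. CDH1 lies at 0.83 and 0.99, and CDH3 moves to the other side, at -0.25 and -0.60.

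Counted together, 4 of the 14 probes (2 of the 10 genes) were higher and 0 lower with Dox on day 1, against 18.8% of all probes called in either direction, 8.91% higher and 9.94% lower. At an unadjusted p under 0.05 there was 1 lower member probe, CDH3. Among probes above background on at least 4 arrays, 39.6% were called on day 1, against 4 of the 7 member probes in that class. On day 2, 3 of the 14 probes (3 genes) were higher and 1 lower, against 28.9% of all probes (14.4% higher and 14.5% lower), and 4 of 7 were called in the class above background, against 58.3%. The share of members called was therefore near the background of this array on day 2. On day 1 the called probes were that of CDH1 and the 3 of JUP. Counted by gene, 2 of 10 members were called on day 1, and 2 of the 5 above background. These shares were also near those of all probes. Averaged over both days, 5 probes were higher and 1 lower, against 31% of all probes (15% higher and 16% lower). The groups did not overlap for 5 member probes on day 1 and 4 on day 2, against 21.3% and 28% of all probes. On day 1 these 5 included 2 probes that were above background on no array, CTNNB1 ILMN_1651617 and DSP, whose differences did not pass the test (adjusted p = 0.273 and 0.415).

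The largest change among the 7 measured member probes, that of CDH1, exceeded in size 94.7% of the changes of probes above background on day 1 and 88.2% on day 2. The median size of the change was 0.33 for the 7 probes and 0.21 for all probes above background on day 1, and 0.43 and 0.32 on day 2. No member probe passed the test for a change of the Dox effect between the days (10.9% of all probes did, and 2 member probes had an unadjusted p under 0.05) or between the vehicle groups (10.6% of all probes, and 1 member probe at an unadjusted p under 0.05). Without moderation of the spread both counts were also 0. Between the Dox groups of the 2 days, 2 member probes were lower on day 2 and none higher, against 19.5% of all probes.

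Across the 16 arrays the members did not move as 1 group. CDH1 values fell into 2 separate clusters, the 8 vehicle and the 8 Dox arrays, so correlations are given within each as a description. Within the 8 Dox arrays, which come from 2 days, CTNNA1 followed CDH1 (r = 0.84), CTNNB1 less so (r = 0.52), and JUP ran against it (r = -0.24, -0.83 and -0.42 for ILMN_1733811, ILMN_1741970 and ILMN_2366864). Within the 8 vehicle arrays the same correlations were 0.17 for CTNNA1, 0.17 for CTNNB1, and 0.35, 0.62 and 0.24 for JUP. For CDH3 they were 0.56 with vehicle and 0.00 with Dox. For comparison, correlations with CDH1 were taken over all probes above background on at least 4 arrays. Their 5th and 95th percentiles were -0.813 and 0.834 within the Dox arrays and -0.53 and 0.52 within the vehicle arrays. Most of the member values lay between these percentiles. With Dox, CTNNA1 (0.836) and JUP ILMN_1741970 (-0.834) lay just outside. With vehicle, JUP ILMN_1741970 (0.617) and CDH3 (0.557) lay above the 95th percentile.

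**Figure D3:**
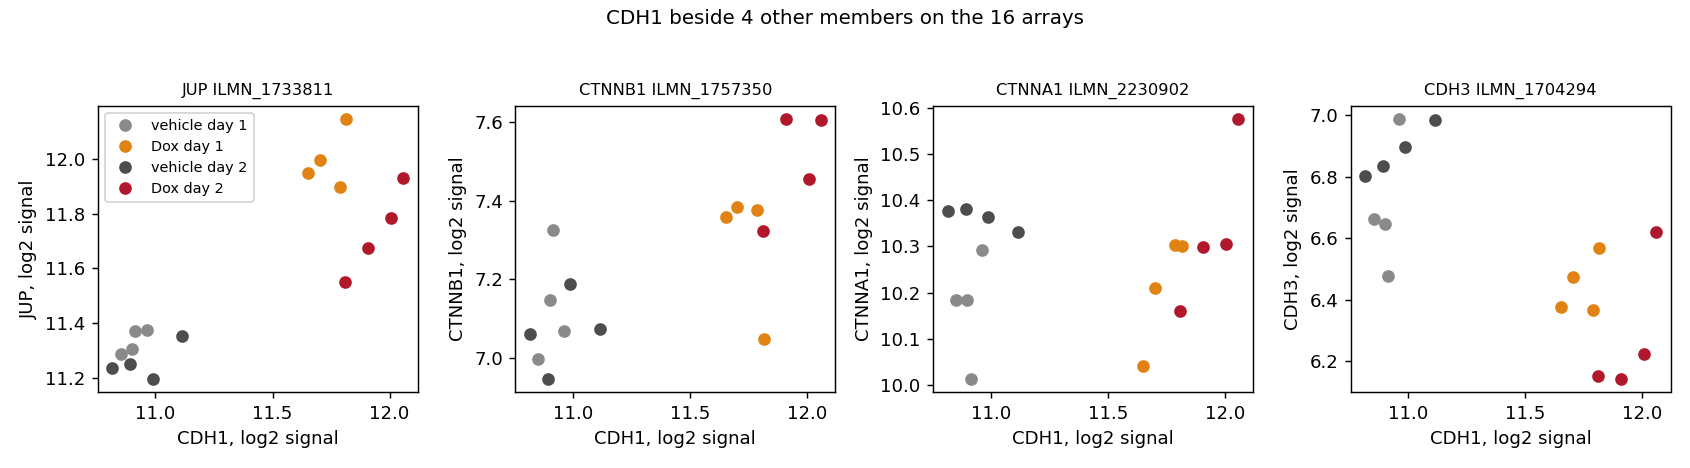
Log2 signal of JUP, CTNNB1, CTNNA1 and CDH3 (vertical axes) against that of CDH1 (horizontal axes), 1 point an array, colored by group. Vehicle and Dox arrays form separate clusters along CDH1. The Dox arrays of day 2 lie lower than those of day 1 for JUP on average and higher for CTNNB1.

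Over all 16 arrays the probes most like CDH1 among 10794 compared were those of SLC7A8 (Pearson r = 0.99), SLC37A1, SLC52A3, SCNN1A and SGK1. Each rose with Dox, SGK1 most, by 4.20 on day 1 and 5.41 on day 2 on the log2 scale, and SLC7A8 by 1.50 and 1.73. Within the 8 vehicle arrays their correlations with CDH1 were lower, from 0.45 for SCNN1A and SLC7A8 to 0.90 for SLC37A1. The probes that ran most against CDH1 were those of TBPL1 (r = -0.99), DEGS1, RABGGTB, ELOVL7 and SLC4A7, which fell with Dox by 0.62 to 1.16 on day 1 and 0.69 to 1.40 on day 2. The 16 arrays share 4 groups, so this likeness mainly orders probes by how closely their group means follow those of CDH1.

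The members were then set beside other genes of the same junctions, taken from lists of cadherins, catenins, desmosome genes and their partners. A gene stands by its probe with the highest mean. Counts below are over genes above background on at least 4 arrays, and over all probes of that class 39.6% were called on day 1 and 58.3% on day 2.

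Of 17 other cadherins measured, 2 were above background, and 1 of these rose. This was CDH15, the muscle cadherin, with 6.83, 6.79, 6.75 and 6.99 on the vehicle arrays and 9.33, 8.93, 8.94 and 8.78 on the Dox arrays of day 2. It rose by 1.28 on day 1 (adjusted p = 8.36e-08) and by 2.16 on day 2 (SE 0.106, adjusted p = 2.56e-11), against 0.83 and 0.99 for CDH1. Of 10 protocadherins measured, 2 were above background, PCDH7 and PCDH20, and both were called lower on both days. PCDH20 was above background on 4 vehicle arrays of day 1, 3 vehicle arrays of day 2 and 0 Dox arrays. It thus entered this class through the vehicle groups alone, so its call is tied to that filter. PCDH7, a protocadherin, fell by 1.42 on day 1 (adjusted p = 2.39e-07) and by 0.60 on day 2 (adjusted p = 0.00108). Its mean was 8.21 on day 1 and 7.30 on day 2 with vehicle, and 6.79 and 6.70 with Dox. The smaller day 2 difference thus went with a lower vehicle level. The other 3 PCDH7 probes were above background on no array.

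Of 8 other catenins and relatives, 4 were above background, of which 2 rose and 1 fell on day 2. CTNNBIP1, a protein that binds beta-catenin and keeps it from TCF factors, measured 6.09, 6.75, 6.52 and 6.87 with vehicle and 7.87, 7.78, 7.52 and 7.71 with Dox on day 2. It rose by 1.13 on day 1 (adjusted p = 1.11e-05) and 1.16 on day 2 (adjusted p = 2.95e-06), and its other probe was above background on no array. CTNNBL1, a splicing-associated relative, differed by -0.04 on day 1 (adjusted p = 0.802) and fell by 0.30 on day 2 (adjusted p = 0.00651). PKP4, a catenin of the CTNND1 family, rose by 0.35 on day 2 (adjusted p = 0.0103), while its second probe, also above background on all arrays, differed by -0.09 (adjusted p = 0.53).

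Of 13 other desmosome genes, 5 were above background. On day 2, 3 of these fell and 1 rose. DSG2, the desmoglein of simple epithelia, measured 6.60, 6.59, 6.38 and 6.57 with vehicle and 6.27, 5.82, 5.41 and 5.62 with Dox on day 2, above background on 4 and 3 of these arrays, and fell by 0.48 on day 1 (adjusted p = 0.0305) and 0.76 on day 2 (adjusted p = 0.000595). PERP, a tetraspan desmosome protein, fell by 0.71 on day 2 (adjusted p = 4.96e-05) after a difference of -0.19 on day 1 (adjusted p = 0.295). PKP3, the plakophilin of most epithelia, was above background on the 4 vehicle arrays and on none of the Dox arrays of day 2. It was at least 1.29-fold lower there, and the adjusted p of its fitted difference was 0.00549. PKP3 met the rule for naming through the vehicle group alone. EVPL, envoplakin, rose by 0.46 on day 1 (adjusted p = 0.02) and by 0.68 on day 2 (adjusted p = 0.000574). DSC2, a desmocollin that was singled out after its values were seen, fell by 0.94 on day 1 (adjusted p = 0.00274) and differed by -0.45 on day 2 (adjusted p = 0.128). DSC2 has 2 probes, and only that with the highest mean is given here. The desmosomal plakoglobin JUP, by its brightest probe, and the desmosomal cadherin DSG2 were thus called in opposite directions on both days. The dimmer JUP probes were not called on day 2.

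Nectins, with the nectin-like PVR, form a second adhesion system of the adherens junction, and 4 of the 5 genes measured were above background. Their partner afadin was not analysed here. On day 1, 0 rose and 2 fell, namely PVR by 0.29 (adjusted p = 0.0285) and NECTIN3, which was singled out after its values were seen, by 0.50 (adjusted p = 3.88e-05). On day 2, 1 rose and 1 fell. NECTIN2 rose by 0.30 (adjusted p = 0.0448), with its other 2 probes above background on no array, and PVR fell by 0.53 (adjusted p = 0.000148). NECTIN3 differed by 0.11 on day 2 (adjusted p = 0.294).

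Of 14 genes that link the junction to actin, 10 were above background, of which 6 rose and 3 fell on day 2, and 5 rose and 2 fell on day 1. LIMA1, an actin-bundling protein bound to alpha-catenin, measured 6.91, 6.76, 6.64 and 6.68 with vehicle and 8.88, 8.97, 8.85 and 9.07 with Dox on day 2. It rose by 2.04 on day 1 (adjusted p = 1.74e-12) and 2.20 on day 2 (adjusted p = 1.04e-13). ACTN1, alpha-actinin, rose by 0.54 on day 1 (adjusted p = 0.00106) and 1.19 on day 2 (adjusted p = 6.66e-08), and ENAH, which elongates actin filaments, by 0.97 on day 2 (adjusted p = 0.000527) after a difference of 0.37 on day 1 (adjusted p = 0.217). The other 2 ENAH probes were above background on no array. TJP1, the scaffold protein of tight junctions that also binds alpha-catenin, fell by 0.95 on day 1 (adjusted p = 1.78e-06) and 1.20 on day 2 (adjusted p = 3.14e-08), and its second probe fell likewise, by 1.27 and 1.37.

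Among genes of cadherin turnover and phosphorylation, 11 of 14 measured were above background, of which 6 rose and 1 fell on day 2. PTPRM, a receptor phosphatase, rose by 0.76 (adjusted p = 1.29e-05), YES1, a Src-family kinase, by 0.48 (adjusted p = 6.02e-05), and RAB11A, which recycles E-cadherin to the membrane, by 0.37 (adjusted p = 0.000491). CBLL1, the ubiquitin ligase that binds phosphorylated E-cadherin, fell by 0.37 (adjusted p = 0.00052).

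Of 10 measured transcriptional repressors of CDH1, 5 were above background, of which 1 rose and 2 fell on day 2. The 1 that rose, SNAI2, entered this class and met the rule for naming through the Dox groups alone, so its call is tied to that filter. SNAI2 (Slug) was above background on none of the vehicle arrays of either day, on 1 Dox array of day 1 and on the 4 Dox arrays of day 2. On day 2 its log2 values were 4.44, 4.55, 4.67 and 4.33 with vehicle and 7.41, 7.33, 7.41 and 7.23 with Dox. SNAI2 was at least 3.76-fold higher with Dox on day 2. The adjusted p of 3.93e-14 belongs to its fitted difference, which uses the vehicle values at background, and not to this bound. TCF3 (E2A) fell by 0.50 on day 1 (adjusted p = 0.000289) and by 0.88 on day 2 (adjusted p = 1.65e-07). GSC was above background on the 4 vehicle arrays but on only 1 Dox array of day 2, with means of 5.92 and 5.31, so its fall (adjusted p = 0.000745) has no exact size, and it met the rule for naming through the vehicle group alone. SNAI2 and CDH1 transcripts thus rose in the same Dox cultures of day 2, on 4 of 4 arrays each.

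Regulators of epithelial genes had 6 of 9 measured genes above background, of which 2 were called higher and 4 lower on day 2. GRHL3, called higher, was above background on 0 vehicle arrays, 4 Dox arrays of day 1 and 1 Dox array of day 2. It entered this class through the Dox groups alone, and no size is given for its day 2 change. ELF3, called lower, was above background on 3 vehicle arrays and 1 Dox array of day 2. EHF, an epithelial ETS factor, measured 8.50, 8.50, 8.28 and 8.55 with vehicle and 9.89, 9.70, 9.84 and 9.86 with Dox on day 2, a rise of 1.37 (adjusted p = 2.31e-09). KLF4 fell by 0.84 (adjusted p = 7.79e-07), GRHL2 by 0.38 (adjusted p = 0.0301) and OVOL2 by 0.27 (adjusted p = 0.00542).

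Around beta-catenin, 8 of 13 genes of the destruction complex and its partners were above background, of which 4 rose and 1 fell on day 2. The 4 include CTNNBIP1, which was already counted among the other catenins and relatives. AXIN1, the scaffold of the complex, fell by 0.59 (adjusted p = 8.74e-07; its other probe was above background on no array), while its kinase GSK3B rose by 0.54 (adjusted p = 7.35e-06) and BCL9L, a coactivator of beta-catenin, by 0.59 (adjusted p = 0.00174). Of 11 measured beta-catenin targets, 4 were above background, and 1 rose and 2 fell on day 2. AXIN2 measured 6.01, 5.93, 6.16 and 5.76 with vehicle and 7.22, 6.97, 7.01 and 6.89 with Dox on day 2, and rose by 1.06 (adjusted p = 2.01e-07) after a difference of 0.16 on day 1 (adjusted p = 0.364). MYC fell by 1.48 on day 2 (adjusted p = 9.69e-10) and CCND1 by 0.41 (adjusted p = 0.000522). The targets measured here therefore did not move in 1 direction.

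**Figure D4:**
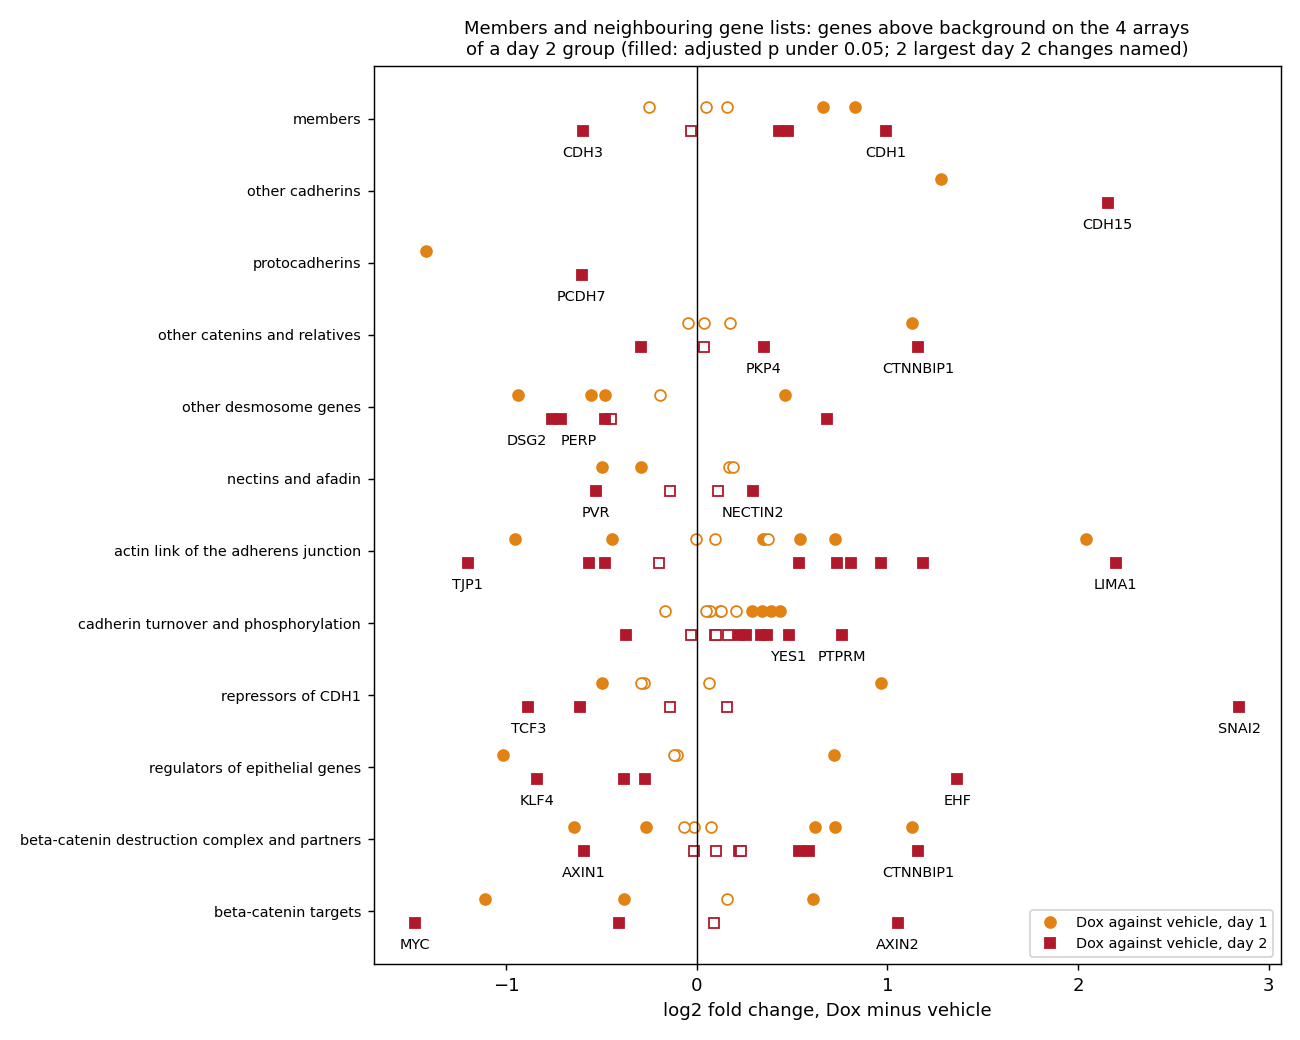
Log2 fold change of Dox against vehicle on day 1 (circles) and day 2 (squares) for the members and 11 lists of related genes, restricted to genes above background on the 4 arrays of a day 2 group, with values as fitted also where the other group lay mostly at background (SNAI2, PKP3 and GSC). Filled symbols passed an adjusted p of 0.05 in limma, and the 2 largest day 2 changes of each list are named. LIMA1 (2.20) and SNAI2 (2.85 as fitted, with vehicle at background) lie farthest to the right and MYC (-1.48) farthest to the left.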

How the data were processed

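The study profiled 16 cultures of C4-2B/Rx2dox cells on Illumina BeadChips, 1 array a culture. The deposited signal intensities are mean bead intensities, neither background-corrected nor scaled between arrays. The deposited detection p-values were computed by the authors' scanner software from 664 negative controls. The authors also deposited log2 values after model-based background correction and quantile normalization, with a median of 4.673 on every array. These rank the probes as the signals do, are not centred by gene, and served as an alternative.

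Here the signals were background-corrected by limma's normal-exponential model (offset 16), quantile normalized and taken to log2. All 16 arrays entered 1 linear model with a mean for each group, by lmFit and eBayes (limma 3.58.1, R 4.3.3), with Benjamini-Hochberg adjustment over 24526 probes. The fit was first tested on simulated data. Of the probes, 21834 carry 1 gene name in the platform annotation and 2692 none. All columns were used. The exon a probe targets was not analysed here, nor were protein sequences of related members compared. From each gene list the text names up to 4 genes with the largest day 2 change past the threshold and detected on every array of at least one day 2 group, plus the 5 probes most and least like CDH1. The members and lists were chosen with earlier results of these data known. The number of arrays limits the precision.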

Additional observations from a re-analysis of the deposited data

Results flagged for a closer look

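In 5 of the 56 sets of 4 arrays (14 probes in 4 groups), 1 array lay outside Dixon's 95% limit for its distance from the rest, where chance gives about 1 in 20. Only 1 of these concerns a probe above background. The CTNNB1 probe ILMN_1757350 measured 7.05 on replicate 1 of the day 1 Dox group against 7.36 to 7.38 on the other 3 arrays. Without that array the day 1 difference was 0.24 in place of 0.16 and still did not pass the test. The other 4 lie at background. CDH2 measured 5.03 on replicate 3 of the day 1 Dox group and 4.76 on replicate 1 of the day 2 Dox group. CTNND1 ILMN_2293511 measured 5.07 on replicate 3 of the day 1 vehicle group and 4.68 on replicate 2 of the day 1 Dox group. Just inside the limit, and so not flagged, lay CDH3, a probe above background. It measured 6.62 on replicate 1 of the day 2 Dox group against 6.14 to 6.22 on the other 3 arrays.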

How the results depend on the processing

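Of 1498 alternative values for single member probes, 1468 kept their call, 8 lost the threshold, 20 gained it and 2 turned. CDH1, JUP ILMN_1733811, CDH3 and CTNNB1 ILMN_1757350 kept their calls on both days under every alternative run, leaving out any 1 array included. The day 2 loss of CDH3 ranged from -0.71 to -0.31 and was smallest without background correction or with the larger offset. Leaving out 1 array gave 3 to 4 member probes higher and 0 lower on day 1, 3 to 4 higher and 1 lower on day 2, and 5 to 6 higher and 1 lower over both days. It gave 0 to 1 lower for the change of the Dox effect, 0 to 1 higher between the vehicle groups, and 0 to 1 higher and 1 to 2 lower between the Dox groups. The last comparison was the least stable: 1 probe (CDH1) was higher without background correction, with an offset of 50 or among probes above background only, and 1 lower with the authors' normalized values or with only the arrays compared. Scaling to the 75th percentile gave 6 higher, but moved the median of all probes by 0.22. There CDH11 turned to 0.22 and DSP to 0.24, both at background. The part of the median shift in these values was not tested. The labels do not say that equal replicate numbers pair the samples. The deviations of same-numbered arrays from their group means correlated at -0.32 to 0.42, with a median of 0.02, and 5 of 16 arrays correlated best with their own number. The replicate 1 arrays went together more than the rest: 5 of their 6 pairs were over 0.1, and 3 exceeded the highest value among different numbers, 0.23. A fit with the replicate number as a block gave 4 higher and 0 lower on day 1, 3 and 1 on day 2, and 6 and 1 over both days, and changed no other count. At a detection p of 0.05, 3 member probes in place of 6 were above background on no array. Ranking likeness to CDH1 by Spearman kept 2 of the 5 most like and 0 of the 5 least like probes. Letting a gene stand by its probe with the largest signal on any array changed the probe of 2 of 124 list entries, with CTNNBIP1 entered in each of its lists. Counts in the lists stayed within 1.5 times, so this says little about other probes of a gene. The comparison of protein sequences was not run. Depth on an array is set by signal over background, and 7 of the 14 probes allow no statement on change.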
